A study of Mus musculus with 27 samples.

Results

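A set of 116 mouse genes, out of 18194 measured, stood at much the same level in thymic Treg precursors and in early Foxp3+ thymocytes. In both they stood above early Foxp3- thymocytes, those of the CD24hi fraction. The genes were chosen by their group means of log2 intensity, with each gene represented by its brightest probe set that carries a single gene symbol. A member was at least 1 log2 unit (2-fold) higher in precursors than in Foxp3- CD24hi cells, at least 1 log2 unit higher in Foxp3+ CD24hi than in Foxp3- CD24hi cells, and differed by under 0.6 between Foxp3+ CD24hi cells and precursors. The working idea behind the choice was that these genes are set before Foxp3 appears. The samples are sorted groups taken side by side, so order in time was not measured, and the genes are called precursor-shared Treg genes here. The name covers only the groups of the choice, since 9 members were lower in Foxp3+ than in Foxp3- cells in another comparison.

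The study hybridised RNA from T cells of BALB/c mice to 27 Affymetrix 3' expression arrays, 3 for each of 9 sorted groups. CD4 single-positive thymocytes had been divided by GFP, which is read here as marking Foxp3, and also by CD24, which thymocytes lose from their surface with maturation. This gave high (CD24hi), intermediate (CD24int) and low (CD24lo) fractions of Foxp3+ cells and of Foxp3- cells. Thymic Treg precursors, which by the series title lack Foxp3-GFP but carry CD25, formed a further group, and lymph nodes gave Tregs and naive T cells. Although the labels of the Foxp3- fractions read Treg, the design text calls them conventional cells, and they are treated so here. The labels name no treatment, age or reporter allele for any group, do not give the CD24 level of the precursors, and leave unsaid whether the 3 replicates are different animals. A p-value therefore reflects only how these samples varied.

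Regulatory T cells (Tregs) restrain other immune cells and depend on the transcription factor Foxp3. In the thymus, a strong signal through the T cell receptor is known to turn on CD25, part of the interleukin-2 receptor, together with several receptors of the TNF family in CD4 thymocytes, and interleukin-2 acting through STAT5 then promotes Foxp3. T cell receptor and costimulatory signals act in part through NF-kB and through immediate response genes such as the Nr4a nuclear receptors, so that part of the Treg profile may be present in cells without Foxp3.

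Promoters of 5 members are shown because the members stood higher together in several Treg groups and because NF-kB, STAT and AP-1 act downstream of the receptors named above. The first 4 are those with the largest difference between Foxp3+ and Foxp3- CD24int cells among members that were higher in 3 separate comparisons and had an NF-kB, STAT or AP-1 match. Tnfrsf9 was added after the matches were seen, as the member promoter with the most kinds of motif. Sequences are from RefSeq (GRCm38.p6), the 250 bases before an annotated start, written 5′ to 3′ on the gene's strand, and capitals mark motif matches.
Il1r2 (chr1:40085843-40086092, plus strand): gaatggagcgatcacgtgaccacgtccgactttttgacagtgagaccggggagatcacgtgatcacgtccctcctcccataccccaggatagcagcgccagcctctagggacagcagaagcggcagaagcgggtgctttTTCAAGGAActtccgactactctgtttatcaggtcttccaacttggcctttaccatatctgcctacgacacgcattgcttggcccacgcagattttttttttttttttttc
Mdfic (chr6:15720411-15720660, plus strand): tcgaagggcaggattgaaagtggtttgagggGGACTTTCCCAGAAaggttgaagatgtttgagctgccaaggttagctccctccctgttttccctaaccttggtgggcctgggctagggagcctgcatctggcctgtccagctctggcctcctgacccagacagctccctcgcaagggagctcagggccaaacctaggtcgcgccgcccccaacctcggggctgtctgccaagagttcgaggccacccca
Cpd (chr11:76847009-76847258, minus strand): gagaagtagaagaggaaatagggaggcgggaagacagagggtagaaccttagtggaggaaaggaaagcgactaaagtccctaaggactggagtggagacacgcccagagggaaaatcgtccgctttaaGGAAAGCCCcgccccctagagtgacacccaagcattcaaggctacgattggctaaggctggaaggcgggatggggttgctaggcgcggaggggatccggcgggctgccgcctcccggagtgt
Slc22a2 (chr17:12583939-12584188, plus strand): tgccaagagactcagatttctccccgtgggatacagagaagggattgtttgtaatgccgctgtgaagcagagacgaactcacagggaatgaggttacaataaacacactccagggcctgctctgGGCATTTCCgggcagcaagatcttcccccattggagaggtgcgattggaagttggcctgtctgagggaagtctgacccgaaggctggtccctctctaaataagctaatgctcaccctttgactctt
Tnfrsf9 (chr4:150927749-150927998, plus strand): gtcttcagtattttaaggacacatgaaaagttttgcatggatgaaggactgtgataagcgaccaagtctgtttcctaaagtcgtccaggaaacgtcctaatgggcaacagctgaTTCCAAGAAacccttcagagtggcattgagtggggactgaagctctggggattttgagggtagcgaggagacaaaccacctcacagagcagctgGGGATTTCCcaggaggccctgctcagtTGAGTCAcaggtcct
The Il1r2 promoter holds a STAT match at -111 to -103 from the start, and Mdfic an NF-kB match at -219 to -211 that overlaps a STAT match at -214 to -206. Cpd has an NF-kB match at -122 to -114 and Slc22a2 at -126 to -118. The Tnfrsf9 promoter, 1 of 2 listed for that gene, holds an NF-kB match at -42 to -34, an AP-1 match at -15 to -9 and a STAT match at -136 to -128.

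Of the 116 members, 91 had a promoter in the RefSeq table, 111 promoters in all, which were read beside all 18110 promoters of 14453 genes on both strands. The NF-kB letters GGNNTTTCC were in 9 member promoters (8.11%, against 5.1% of all promoters), and the AP-1 letters TGANTCA in 8 (7.21% against 5.62%). The STAT letters TTCNNNGAA were in 9 (8.11% against 6.21%) and the EGR letters GCGNGGGCG in 12 (10.8% against 7.36%). The NFAT letters TGGAAA, which can overlap an NF-kB match, were in 15 (13.5% against 16.2%), the forkhead letters TGTTTAC in 2 (1.8% against 2.61%) and the NR4A letters AAAGGTCA in 0 (against 1.12%). A match describes the sequence without showing that a factor binds there.

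Foxp3 followed the sort. It stood at 3.97 ± 0.17 log2 units (SD, n = 3) in precursors, close to the 3.80 ± 0.44 of Foxp3- CD24hi cells, while Foxp3+ CD24hi cells had 10.07 ± 0.11. The CD25 gene Il2ra, no member itself, was intermediate in precursors (8.16 ± 0.29), above Foxp3- CD24hi (4.42 ± 0.23) and below Foxp3+ CD24hi (10.18 ± 0.22). Cd24a was highest in precursors (11.74 ± 0.43) and lowest in Foxp3- CD24lo cells (6.00 ± 0.82). Marker lists of other cells were read in the same arrays. In precursors the summed level of 9 double-positive thymocyte markers was 11.23 to 12.03, against 11.21 to 11.34 in Foxp3- CD24hi and 10.78 to 10.80 in Foxp3+ CD24hi arrays. That of 11 NK and innate-like T cell markers was 9.58 to 10.59, against 7.62 to 8.08 and 9.42 to 10.06, and 3, 8 and 9 of those markers had means below 5 in the 3 groups. For 5 gamma delta T cell markers it was 8.83 to 10.84, against 8.19 to 8.50 and 7.89 to 8.33. Single genes differed from such sums. In the same order of groups, Rag1 stood at 8.97 ± 0.78, 6.77 ± 0.17 and 4.20 ± 0.09. Zbtb16 stood at 6.97 ± 1.16, 5.18 ± 0.48 and 4.96 ± 0.36, and Cd8b1 at 8.06 ± 0.17, 8.40 ± 0.17 and 7.14 ± 0.38. In Foxp3- CD24hi replicate 3 the summed level of 9 liver markers was 12.95. The part of these markers in the choice of members was not tested, and in bulk RNA fewer cells of a type and less RNA per cell cannot be told apart.

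The values that chose the members are given as a description, without a test. Both differences from Foxp3- CD24hi cells reached 1 log2 unit in 218 genes. In 82 of them Foxp3+ CD24hi cells stood at least 0.6 above precursors, in 20 precursors stood at least 0.6 above Foxp3+ CD24hi cells, and the other 116 were the members. The members' median difference from Foxp3- CD24hi cells was 1.56 in precursors and 1.70 in Foxp3+ CD24hi cells, where the medians of all genes were -0.01 and 0.00. Foxp3+ CD24hi cells were the higher of the pair in 69 members and precursors in 47. At the edges of the choice, Gch1 (1.00) and Armcx4 (1.02) were just inside the precursor threshold and Casp4 (0.99) and Srgn (0.98) just outside it. Gfod1 and Perp (both 1.00) were just inside the Foxp3+ threshold, with Mtm1 (0.99) and Lag3 (0.98) outside. Abhd4 (0.60) and Osbpl3 (0.59) were just inside the closeness limit, with Ccnj and Fcrl1 (both 0.62) outside.

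Penk, which encodes the precursor of the enkephalin opioid peptides, had the largest of these differences. Its log2 intensities were 4.23, 3.61 and 4.24 in Foxp3- CD24hi cells, 8.41, 8.43 and 8.12 in precursors and 8.78, 8.79 and 8.98 in Foxp3+ CD24hi cells. Precursors thus stood 4.29 and Foxp3+ CD24hi cells 4.82 above the Foxp3- cells. By the mean of both differences the next members were Sectm1a, Niban1, Bhlhe40 (a transcriptional repressor induced by activation), Tbc1d4 (a Rab GTPase-activating protein), Pla2g4f (of the cytosolic phospholipase A2 family), Ikzf2, Mdfic, Ntn1 (netrin-1), Cpd (carboxypeptidase D), Cd72 and Kit.

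Over all 9 groups, the mean log2 intensity of the 116 members was 6.12 ± 0.09 (SD over 3 arrays) in Foxp3- CD24hi cells, 7.88 ± 0.16 in precursors and 7.97 ± 0.19 in Foxp3+ CD24hi cells. It stood at 7.99 ± 0.11 and 8.06 ± 0.14 in Foxp3+ CD24int and CD24lo cells and at 7.68 ± 0.09 in lymph node Tregs. In Foxp3- cells it was 6.25 ± 0.07 at CD24int but 6.94 ± 0.07 at CD24lo, and in lymph node naive cells it was 6.16 ± 0.09. The members' highest group was Foxp3+ CD24hi for 25, precursors for 23, lymph node Tregs for 23, Foxp3+ CD24lo for 20, and Foxp3+ CD24int for 12. It was Foxp3- CD24lo for another 12 and naive cells for 1. Foxp3- CD24lo cells stood at or above the precursor level in 28 members. The lowest group was Foxp3- CD24hi for 50, naive cells for 48, Foxp3- CD24int for 15 and Foxp3- CD24lo for 3. The choice of members fixed part of this, including the gap of Foxp3- CD24hi from precursors and Foxp3+ CD24hi cells. By the rule Foxp3- CD24hi could not be highest, nor precursors or Foxp3+ CD24hi lowest.

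**Figure D1:**
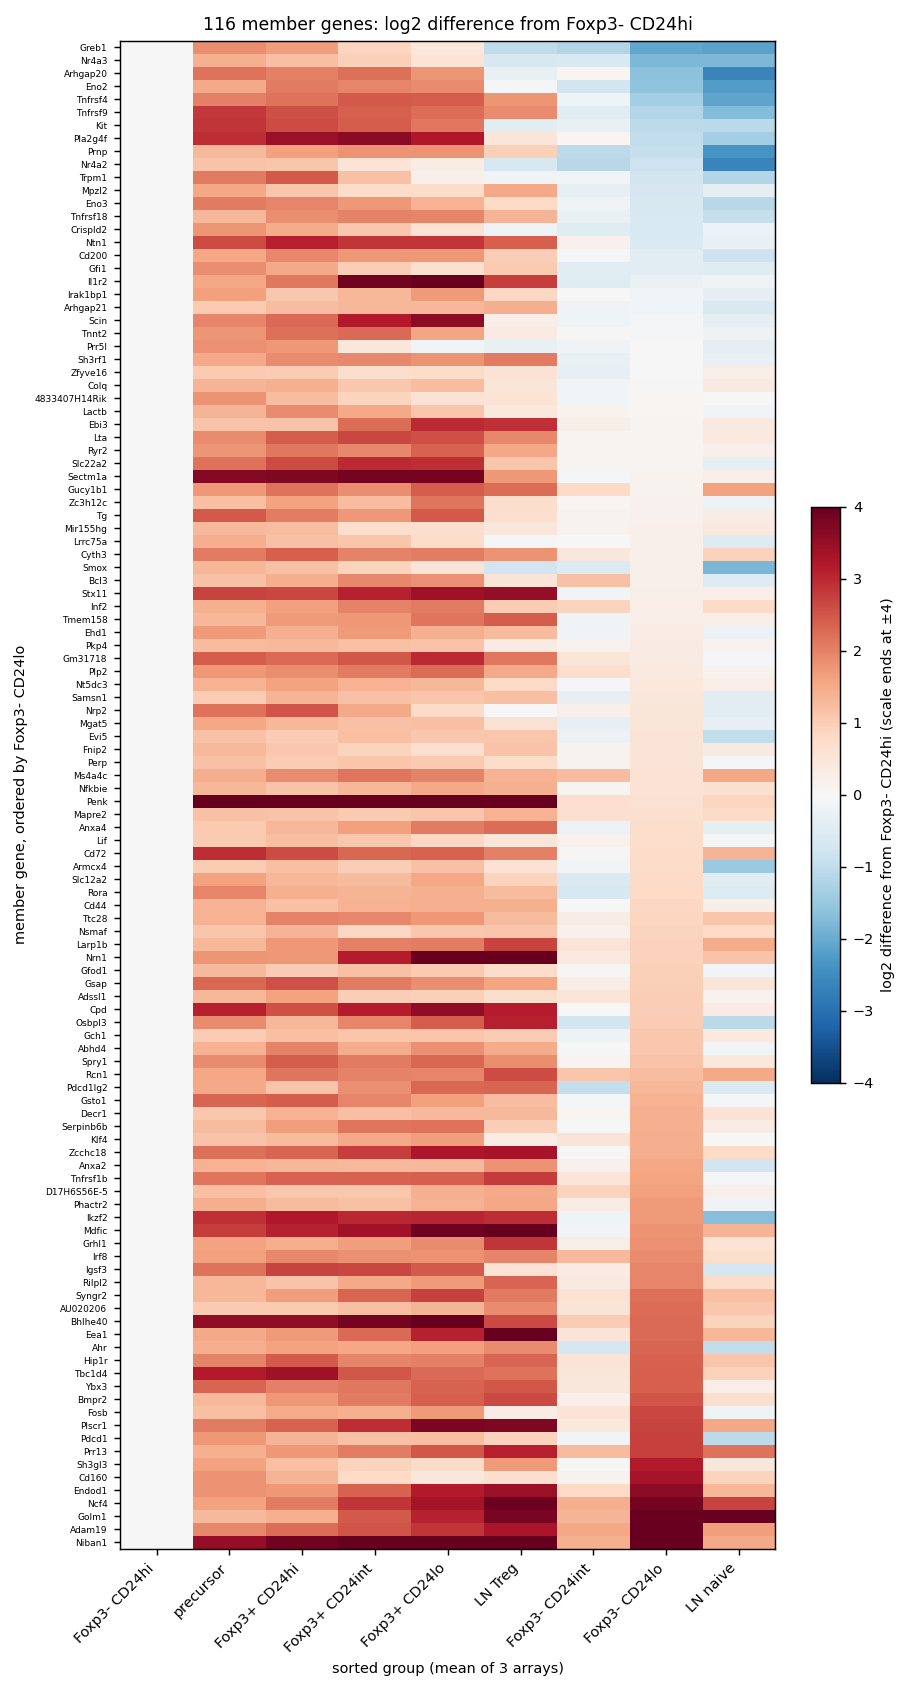
Mean log2 intensity of each of the 116 members (rows) in the 9 groups (columns, 3 arrays each), shown as the difference from Foxp3- CD24hi cells, with the colour scale ending at 4 and -4 and the rows ordered by Foxp3- CD24lo. Precursors and Foxp3+ CD24hi cells are above the reference in every row because the members were chosen so, while Foxp3- CD24lo cells are above it in only some rows.

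Whether the members also marked Tregs where they had not been chosen was asked by comparing groups among the 18 arrays whose group means the choice did not use. All 27 arrays entered the limma fit and so its error estimates, and also the choice of each gene's brightest probe set. P-values were adjusted by Benjamini-Hochberg over 18194 genes. A gene was called at an adjusted p under 0.05, and differences are log2 values ± SE with 3 arrays a group. In Foxp3+ against Foxp3- CD24int thymocytes, 107 members were called higher, 0 lower and 9 were not called, where 8.66% of all genes were higher and 6.62% lower. All 116 had a positive difference, and 111 had an unadjusted p under 0.05. The members' median difference was 1.55 (2.93-fold), and that of all genes -0.01.

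In Foxp3+ against Foxp3- CD24lo thymocytes, 76 members were higher, 9 were lower and 31 were not called, with 9.85% and 11.2% of all genes called. The median member difference was 0.92. In lymph node Tregs against naive T cells, 91 were higher, 0 lower and 25 not called, where 8.01% of all genes were higher and 4.35% lower. The median there was 1.29 (2.45-fold), 113 of the differences were positive, and 100 had an unadjusted p under 0.05. Medians of all genes were -0.01 and -0.04. These 3 comparisons share no arrays, and 60 members were higher in all of them, against 3.47% of all genes.

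Markers of other T cells also differed between some of these groups. The summed level of 5 gamma delta T cell markers was 7.72 to 7.96 in Foxp3+ CD24int and 8.48 to 9.96 in Foxp3- CD24int arrays, and 7.84 to 8.72 in lymph node Tregs and 9.00 to 9.22 in naive cells, without overlap in either pair (2, 1, 1 and 1 of the 5 had means below 5). That of 11 NK and innate-like T cell markers overlapped at CD24int (9.19 to 9.97 against 8.48 to 9.75) but not in lymph node (8.93 to 9.20 in Tregs against 9.84 to 10.24 in naive cells), with 9, 5, 8 and 5 of the 11 below 5. Their part in the members' differences was not tested.

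**Figure D2:**
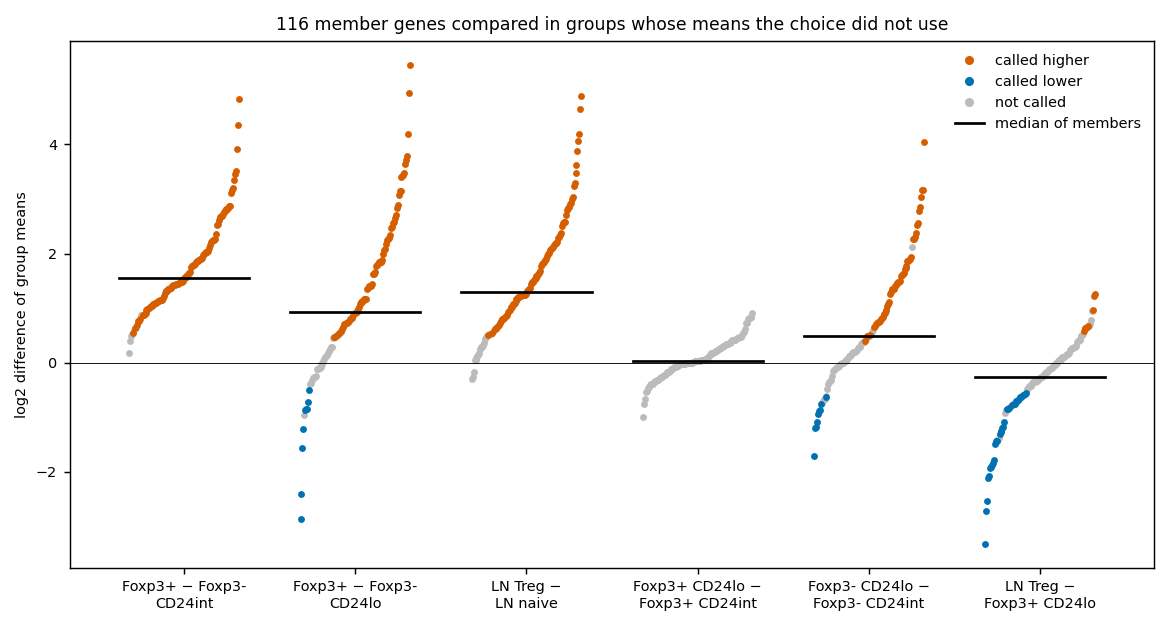
Log2 differences of the 116 members, sorted within each of 6 comparisons (3 arrays a group), with points coloured by call (limma, adjusted p under 0.05) and a line at the median. Nearly all points lie above 0 for Tregs against conventional cells at CD24int and in lymph node, while 9 members are called lower at CD24lo.

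Receptors of the TNF family, through which costimulation reaches T cells, had 4 members. Tnfrsf4 (OX40) read 12.09, 12.31 and 12.17 in Foxp3+ CD24int cells and 9.29, 9.57 and 9.87 in Foxp3- CD24int cells. In lymph node Tregs it read 11.47, 11.43 and 11.64, and in naive cells 7.61, 7.66 and 7.63. The groups of each pair were far apart, with differences of 2.61 ± 0.18 (limma adjusted p = 4.41e-11) and 3.88 ± 0.18 (3.19e-14), and of 3.79 ± 0.18 at CD24lo (3.17e-14).

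Tnfrsf9 (4-1BB) read 10.02, 10.02 and 10.44 in Foxp3+ CD24int cells against 7.12, 6.81 and 7.93 in Foxp3- CD24int cells. It was called higher at CD24int (2.87 ± 0.27), at CD24lo (3.39 ± 0.27) and in lymph node (3.63 ± 0.27). Tnfrsf18 (GITR) had close differences in all 3, of 2.27 ± 0.14, 2.56 ± 0.14 and 2.28 ± 0.14. Tnfrsf1b (TNF receptor 2) was higher by 1.90 ± 0.16, 0.81 ± 0.16 and 2.84 ± 0.16. All 12 of these values were called. Among the 25 measured TNF receptors and ligands of a list written from general knowledge, 10 were higher and 5 lower at CD24int, 10 and 9 at CD24lo, and 9 and 4 in lymph node. Such counts, here and for the lists below, include the members. The lists were chosen with earlier results of these data known, so their counts are not independent evidence. Of all genes, 8.66% were higher and 6.62% lower at CD24int, 9.85% and 11.2% at CD24lo, and 8.01% and 4.35% in lymph node. The ligands Tnfsf4 and Tnfsf14 stood 2.07 and 1.91 above Foxp3- CD24hi cells in precursors but 0.04 above and -0.18 in Foxp3+ CD24hi cells, so that they were no members.

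A list of interleukin-2, STAT5 and cytokine receptor genes, which also holds kinases and feedback inhibitors, had 1 member of 29 measured. Il1r2, a decoy receptor that binds interleukin-1 without signalling, read 9.36, 9.13 and 8.56 in Foxp3+ CD24int cells and 4.50, 4.86 and 4.65 in Foxp3- CD24int cells. The difference was 4.35 ± 0.22 (20.3-fold, limma adjusted p = 2.27e-13), second only to Penk among the members in that comparison. Its level in Foxp3+ thymocytes, 6.74 to 7.80 at CD24hi, was 8.56 to 9.36 at CD24int and 9.79 to 9.92 at CD24lo, so the CD24hi level that made it a member was the lowest of the 3. In the same list, 12 genes were higher and 3 lower at CD24int, 14 and 6 at CD24lo, and 15 and 2 in lymph node. Il2ra, Il2rb and the STAT5 target Socs2 passed both thresholds but stood 2.02, 1.45 and 2.95 higher in Foxp3+ CD24hi cells than in precursors.

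Kit, the receptor for stem cell factor, read 7.63, 8.06 and 8.29 in Foxp3+ CD24int cells and 5.09, 5.23 and 5.47 in Foxp3- CD24int cells. In lymph node Tregs it read 5.03, 4.96 and 5.47, and in naive cells 4.92, 3.93 and 4.59. The thymic groups did not overlap and differed by 2.73 ± 0.26 (limma adjusted p = 2.24e-08). In lymph node the difference of 0.67 ± 0.26 was not called (adjusted p = 0.112). With the replicate number, taken to pair the lymph node arrays, as a block, that difference was called (adjusted p = 0.0296). It was also called, at 0.89, without naive replicate 1 (0.045). The gene's other probe set, with a mean of 4.36 over all arrays against 6.36 for the one used, differed by 0.70 at CD24int and -0.08 in lymph node.

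Inhibitory and costimulatory receptors and their ligands had 4 members of 23 measured. Pdcd1lg2 (PD-L2, a ligand of PD-1) read 7.30, 7.48 and 7.49 in Foxp3+ CD24int cells and 4.56, 4.75 and 4.60 in Foxp3- CD24int cells. The gap was 2.78 ± 0.21, with 0.98 ± 0.21 at CD24lo and 2.92 ± 0.21 in lymph node, all called. Cd200, whose product dampens myeloid cells, was higher by 1.80 ± 0.18, 2.17 ± 0.18 and 1.81 ± 0.18 in the same 3 comparisons. Pdcd1 (PD-1) and Cd160 behaved differently at CD24lo and are described with that group. Of the whole list, 14 genes were higher and 0 lower at CD24int, 13 and 6 at CD24lo, and 14 and 0 in lymph node.

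Secreted proteins and their precursors included the most strongly different member. Penk read 9.23, 9.84 and 9.58 in Foxp3+ CD24int cells against 4.81, 4.63 and 4.68 in Foxp3- CD24int cells. It was 9.65, 10.21 and 10.43 in Foxp3+ CD24lo cells, 4.63, 4.41 and 4.87 in Foxp3- CD24lo cells, 10.12, 9.31 and 9.83 in lymph node Tregs and 5.43, 4.86 and 4.35 in naive cells. Every Treg array was above every conventional array, by 4.84 ± 0.24 (28.6-fold, limma adjusted p = 1.66e-13), 5.46 ± 0.24 (1.06e-14) and 4.88 ± 0.24 (1.34e-13).

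Lta, the lymphotoxin alpha gene, was higher by 2.55 ± 0.12, 2.46 ± 0.12 and 1.56 ± 0.12 in the same order. Ebi3, a subunit of interleukin-27 and interleukin-35, read 7.08, 6.98 and 7.12 in Foxp3+ CD24int and 5.01, 5.07 and 5.05 in Foxp3- CD24int cells, and was higher by 2.01 ± 0.23, 2.88 ± 0.23 and 2.56 ± 0.23. Its level in precursors and Foxp3+ CD24hi cells was only 5.73 to 6.17. Ntn1 was higher by 2.69 ± 0.20, 3.43 ± 0.20 and 2.70 ± 0.20. All of these were called. Lif, the leukaemia inhibitory factor gene, was called at CD24int (0.89 ± 0.14) and in lymph node (0.54 ± 0.14) but not at CD24lo (0.12 ± 0.14). The lymph node call was lost without Treg replicate 1 or naive replicate 1 or 3 (0.46 to 0.50), and when its probe sets were averaged (0.22).

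The NF-kB pathway had 2 members, both of the inhibitor of kappa B family. Nfkbie, which holds NF-kB dimers in the cytoplasm, read 9.37, 9.37 and 9.31 in Foxp3+ CD24int cells and 8.19, 8.12 and 8.07 in Foxp3- CD24int cells. The groups did not overlap and differed by 1.23 ± 0.10 (limma adjusted p = 1.72e-09), with 0.93 ± 0.10 at CD24lo and 0.77 ± 0.10 in lymph node. Bcl3, an atypical member that acts in the nucleus, was higher by 0.76 ± 0.12, 1.62 ± 0.12 and 1.03 ± 0.12. Of 23 measured genes of the pathway, 14 were higher and 1 lower at CD24int, 13 and 0 at CD24lo, and 10 and 2 in lymph node. The subunit gene Rel missed membership, at 0.91 in precursors and 0.95 in Foxp3+ CD24hi cells above Foxp3- CD24hi.

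Genes induced by the T cell receptor had 6 members of 28 measured. Nr4a3, an orphan nuclear receptor, read 10.76, 10.76 and 10.84 in Foxp3+ CD24int cells and 9.27, 9.09 and 9.32 in Foxp3- CD24int cells. At CD24lo it read 10.25, 10.46 and 10.46 against 7.97, 8.09 and 8.09, and in lymph node 9.07, 9.16 and 9.36 against 7.87, 8.29 and 7.96. The Treg arrays were higher in each pair, by 1.56 ± 0.13, 2.34 ± 0.13 and 1.16 ± 0.13 (limma adjusted p at most 2.18e-07). Within Foxp3+ cells the level was highest at CD24hi, 10.86 to 11.26. The lymph node call was lost when all probe sets of the gene were averaged (0.28, adjusted p = 0.132).

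Bhlhe40 read 9.00, 9.59 and 8.98 in Foxp3+ CD24int cells and 6.42, 6.51 and 6.15 in Foxp3- CD24int cells, and was higher by 2.83 ± 0.22, 1.87 ± 0.22 at CD24lo and 1.78 ± 0.22 in lymph node. Gfi1, a transcriptional repressor, was higher by 1.43 ± 0.13, 1.09 ± 0.13 and 1.53 ± 0.13. Nr4a2 was higher by 1.66 ± 0.31, 1.12 ± 0.31 and 2.01 ± 0.31, and its CD24lo call was lost without Foxp3- CD24lo replicate 3 (0.70, adjusted p = 0.11). Fosb, a component of AP-1, had the widest error of the 6 and was not called in any of the 3 comparisons (0.87 ± 0.71, -0.95 ± 0.71 and 0.48 ± 0.71). Other genes of the list went the other way in precursors: Egr1 and Egr2 stood at -1.13 and -1.12 relative to Foxp3- CD24hi cells. Of the list, 9 genes were higher and 1 lower at CD24int, 10 and 10 at CD24lo, and 10 and 5 in lymph node.

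Of 39 measured transcription factors, 5 were members. Ikzf2, which encodes Helios, read 12.61, 12.49 and 12.30 in Foxp3+ CD24int cells and 9.45, 9.11 and 9.33 in Foxp3- CD24int cells. In lymph node it read 12.49, 12.51 and 12.25 against 8.14, 7.75 and 7.39. Both pairs were far apart, by 3.17 ± 0.17 (limma adjusted p = 5.13e-13) and 4.65 ± 0.17 (25.2-fold, 7.43e-16), while precursors, at 12.24 to 12.54, overlapped the Treg groups.

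Rora, a retinoid-related orphan receptor, was higher by 2.02 ± 0.16, 0.61 ± 0.16 at CD24lo and 1.82 ± 0.16 in lymph node. Ahr, the aryl hydrocarbon receptor, was higher at CD24int (2.25 ± 0.20) and in lymph node (2.86 ± 0.20). Irf8 was called in lymph node alone (1.23 ± 0.29). Its CD24int difference of 0.52 ± 0.29 was called, at 0.98, without Foxp3- CD24int replicate 1 (limma adjusted p = 0.00861). Klf4 was called in none of the 3 (0.99 ± 0.49, 0.21 ± 0.49 and 0.29 ± 0.49). The list had 17 higher and 7 lower at CD24int, 14 and 8 at CD24lo, and 22 and 6 in lymph node.

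Signalling feedback genes had 1 member of 29 measured: Spry1, an inhibitor of the MAP kinase cascade, was higher by 1.97 ± 0.21, 1.17 ± 0.21 and 1.45 ± 0.21. Of that list 9 genes were higher and 5 lower at CD24int, 12 and 5 at CD24lo, and 11 and 2 in lymph node. Adhesion and migration genes had 2 members of 28: Cd44, the hyaluronan receptor, and Anxa2, an annexin. Cd44 was higher by 1.38 ± 0.16, 0.59 ± 0.16 and 1.16 ± 0.16, and its CD24lo call was lost without Foxp3+ CD24lo replicate 3 (0.49, limma adjusted p = 0.0575). Anxa2 was called at CD24int (1.11 ± 0.21) and in lymph node (2.58 ± 0.21) but not at CD24lo (-0.26 ± 0.21). That list had 13 higher and 2 lower at CD24int, 16 and 7 at CD24lo, and 17 and 2 in lymph node. None of 18 measured apoptosis genes was a member, and 9 of them were higher and 0 lower at CD24int, 12 and 1 at CD24lo, and 6 and 0 in lymph node.

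Of 32 measured genes of the textbook Treg signature, 6 were members: Ikzf2, Tnfrsf4, Tnfrsf9, Tnfrsf18, Penk and Ebi3. Another 16, among them Il2ra, Il2rb, Ctla4 and Nrp1, passed both thresholds but stood at least 0.6 higher in Foxp3+ CD24hi cells than in precursors. Foxp3, Gpr83 and Ecm1 passed in Foxp3+ CD24hi cells alone, Gzmb and Icos in precursors alone, S100a4 was higher in precursors than in Foxp3+ CD24hi cells, and 4 passed neither threshold. The signature was chosen from what is known of Tregs, so its direction here is not independent evidence. It had 31 higher and 0 lower at CD24int (median 2.87), 26 and 2 at CD24lo (3.08), and 32 and 0 in lymph node (3.53). Where a list had 0 lower calls in limma, at most 1 of its genes was lower at an unadjusted p under 0.05.

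Members with no place in those lists included several of the largest differences. Sectm1a read 6.64, 7.06 and 7.36 in Foxp3+ CD24int cells and 3.01, 3.22 and 3.09 in Foxp3- CD24int cells. Pla2g4f read 9.00, 8.39 and 8.50 against 5.42, 4.74 and 5.21. The groups were separate in both genes, by 3.91 ± 0.23 and 3.51 ± 0.23 (limma adjusted p = 3.75e-12 and 1.89e-11). Mdfic, which encodes a protein with an inhibitor domain of the MyoD family, differed by 3.47 ± 0.19, and Osbpl3, an oxysterol-binding protein relative, was among the 5 with the largest differences in lymph node (4.19 ± 0.26). Nrn1 (neuritin) read 10.19, 9.86 and 10.16 in lymph node Tregs and 6.27, 5.92 and 5.84 in naive cells, a difference of 4.06 ± 0.25 (4.66e-12).

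**Figure D3:**
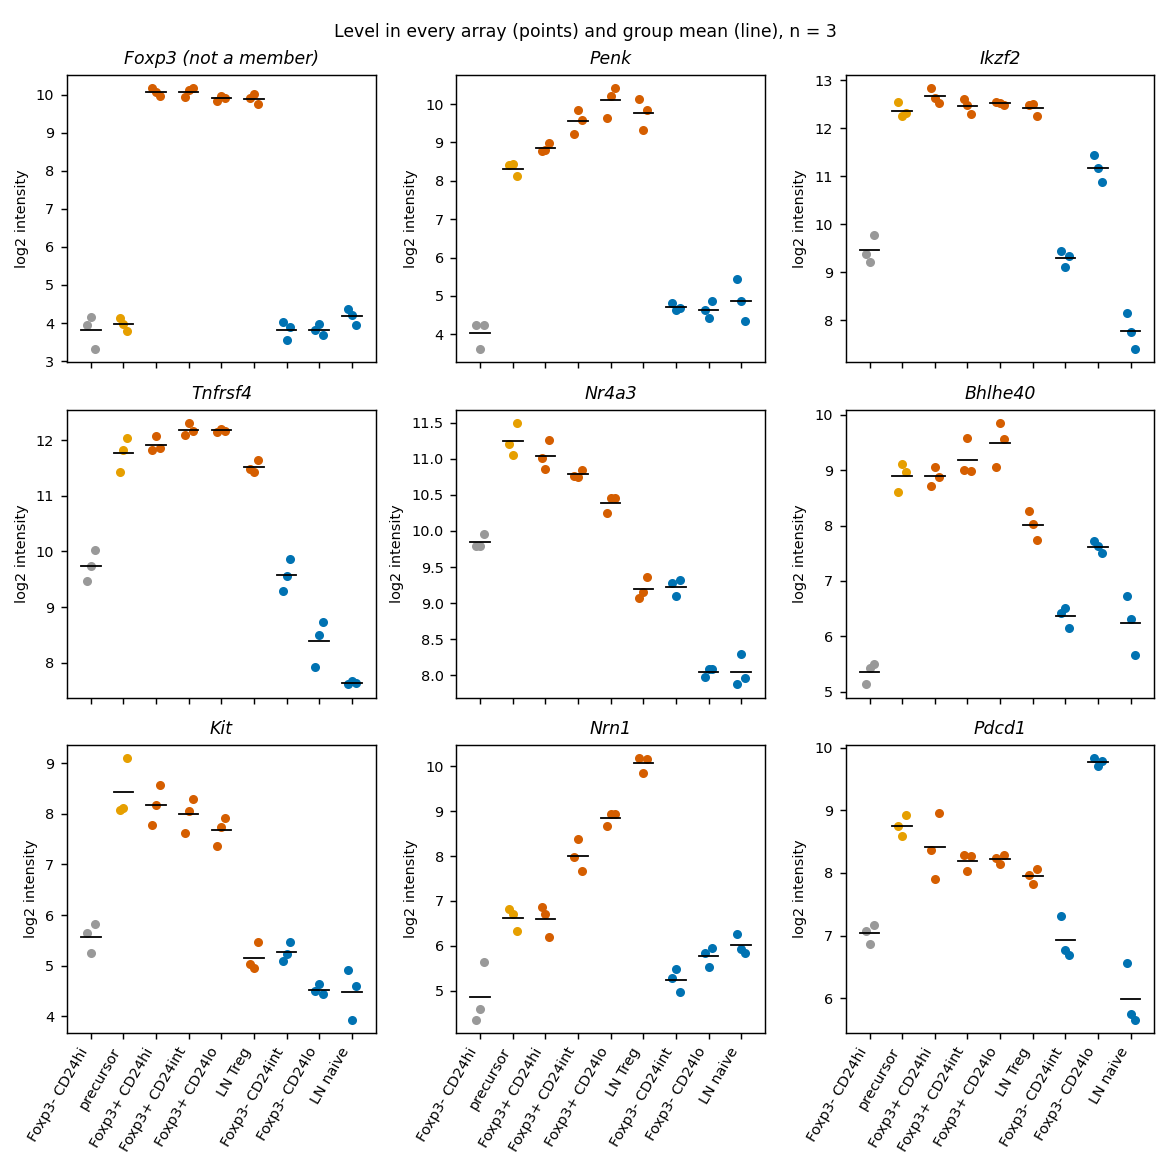
Log2 intensity in every array (points, with a line at each group's mean of 3 arrays) of Foxp3 and of 8 members in the 9 groups. Foxp3 is low in the precursors, while all 8 members are near their Foxp3+ CD24hi level there because the members were chosen so. Pdcd1 is highest in Foxp3- CD24lo cells (9.70 to 9.84), and Kit falls from 7.36 to 7.92 in Foxp3+ CD24lo thymocytes to 4.96 to 5.47 in lymph node Tregs.

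The 9 members not called at CD24int had positive differences with wide errors or small sizes. By mean level the first were Mapre2 (0.40 ± 0.16, limma adjusted p = 0.0901), D17H6S56E-5 (0.17 ± 0.22, 0.716), Klf4 (0.221), Irf8 (0.277) and Fosb (0.522). Mapre2, a microtubule-binding protein gene, was called without Foxp3+ CD24int replicate 1 (0.51, 0.0491) and when its probe sets were averaged (0.41, 0.0323). The other 4 were Cd160, Sh3gl3, Prr5l and Adssl1, with differences of 0.48 to 0.87. Cd160 and Sh3gl3 were called when the compared groups were fitted alone (0.0336 and 0.038). Adssl1, Fosb, Klf4 and Prr5l were called in none of the 3 comparisons of Tregs with conventional cells. A missed threshold does not show that these genes were at the same level.

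At CD24lo the Foxp3- cells themselves stood high for part of the members. Niban1 read 10.96, 10.92 and 10.86 in Foxp3- CD24lo cells against 9.82, 10.10 and 10.25 in Foxp3+ CD24lo cells, where at CD24int it had read 7.36, 6.92 and 6.32 against 9.58, 9.82 and 9.66. The order of the classes was thus the opposite at the 2 CD24 levels, without overlap at either. Pdcd1 read 9.84, 9.70 and 9.78 in Foxp3- CD24lo cells against 8.24, 8.14 and 8.29 in Foxp3+ CD24lo cells, and 7.31, 6.78 and 6.70 against 8.29, 8.03 and 8.26 at CD24int. Cd160, which binds the TNF receptor relative HVEM, read 9.31, 9.01 and 8.87 in Foxp3- CD24lo cells and 6.25, 5.95 and 6.41 in Foxp3+ CD24lo cells.

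The 9 members called lower in Foxp3+ than Foxp3- CD24lo cells were Cd160 (-2.86 ± 0.27, limma adjusted p = 9.83e-09), Sh3gl3 (-2.41 ± 0.39), Pdcd1 (-1.55 ± 0.21), Adam19 (-1.21 ± 0.19), Niban1 (-0.86 ± 0.19), AU020206 (-0.85 ± 0.18), Golm1 (-0.85 ± 0.28), Ahr (-0.71 ± 0.20) and Ncf4 (-0.51 ± 0.14). Sh3gl3 encodes an endophilin, Adam19 a membrane metalloprotease and Ncf4 a subunit of the phagocyte NADPH oxidase. Some of these calls rested on single arrays. Without Foxp3- CD24lo replicate 1 the differences were -0.53 for Ahr (adjusted p = 0.0966), -0.40 for Ncf4 (0.0573) and -0.64 for Golm1 (0.175), and Golm1 also lost its call without any 1 of the Foxp3+ CD24lo arrays (-0.82 to -0.89). AU020206, Adam19, Ahr, Ncf4, Niban1 and Pdcd1 were higher in Tregs at CD24int and in lymph node and lower at CD24lo. Of these, AU020206 lost its CD24int call without Foxp3+ CD24int replicate 2 (0.57) or Foxp3- CD24int replicate 3 (0.54).

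Within Foxp3- cells, from CD24int to CD24lo, 55 members were called higher, 9 lower and 52 not called, where 7.85% of all genes were higher and 4.13% lower. The median member difference was 0.49, against 0.01 over all genes. The largest were Niban1 (4.05 ± 0.19, 16.5-fold, limma adjusted p = 1.38e-13), Cd160 (3.17 ± 0.27), Sh3gl3 (3.16 ± 0.39), Ahr (3.03 ± 0.20) and Pdcd1 (2.85 ± 0.21). Lower at CD24lo were Arhgap20 (-1.70 ± 0.23), Tnfrsf4 (-1.19 ± 0.18), Nr4a3 (-1.18 ± 0.13), Pla2g4f (-1.09 ± 0.23) and Bcl3 (-0.94 ± 0.12), among others. The same-numbered arrays of these groups deviated together. With replicate number as a block, 17 members were lower, where 7.14% of all genes were. This comparison and the one between classes at CD24lo share the Foxp3- CD24lo arrays, so the same 3 arrays enter both sets of values.

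Ikzf2 was 1.87 ± 0.17 higher in Foxp3- CD24lo than in Foxp3- CD24int cells, with 11.44, 11.17 and 10.89 against 9.45, 9.11 and 9.33. It still stayed under the 12.55, 12.52 and 12.48 of Foxp3+ CD24lo cells. Tnfrsf1b (1.11 ± 0.16), Rora (1.46 ± 0.16), Pdcd1lg2 (2.27 ± 0.21), Tbc1d4 (1.88 ± 0.22), Bhlhe40 (1.25 ± 0.22) and Spry1 (1.03 ± 0.21) were also higher at CD24lo. Penk (-0.07 ± 0.24), Il1r2 (0.24 ± 0.22), Lta (-0.02 ± 0.12), Gfi1 (-0.01 ± 0.13), Sectm1a (0.20 ± 0.23) and Scin (0.09 ± 0.27), an actin-severing protein gene, were not called.

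Markers of other T cells moved with that group. The summed level of 11 NK and innate-like T cell markers was 12.71 to 12.99 in Foxp3- CD24lo arrays, 8.48 to 9.75 in Foxp3- CD24int and 9.23 to 9.75 in Foxp3+ CD24lo arrays, and 1, 5 and 9 of the 11 had means below 5. For 5 gamma delta T cell markers it was 13.43 to 13.56, 8.48 to 9.96 and 7.66 to 7.94, with 0, 1 and 2 below 5. The innate-like factor gene Zbtb16 read 11.17, 10.91 and 10.61 in Foxp3- CD24lo arrays. The part of such cells in the members' levels was not tested.

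Within Foxp3+ cells the same step gave almost no calls over all genes, so the absence of calls is not particular to the members. From CD24int to CD24lo 0 of 116 were called in either direction, where 0.011% of all genes were higher and 0.0055% lower, and 25 members had an unadjusted p under 0.05 in limma. Differences ran from -0.99 to 0.91 with a median of 0.03 and a median SE of 0.15 over the comparisons of 2 groups. With the replicate number, taken to pair these arrays, as a block, Syngr2 (0.42) was called higher and Trpm1 (-0.99) lower, where 0.0934% and 0.033% of all genes were. Trpm1, a cation channel gene, read 7.35, 7.03 and 7.83 at CD24int and 6.39, 6.35 and 6.52 at CD24lo, without overlap. Il1r2 (0.83 ± 0.22), Nrn1 (0.85 ± 0.25) and Ebi3 (0.74 ± 0.23) had positive differences that were not called.

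**Figure D4:**
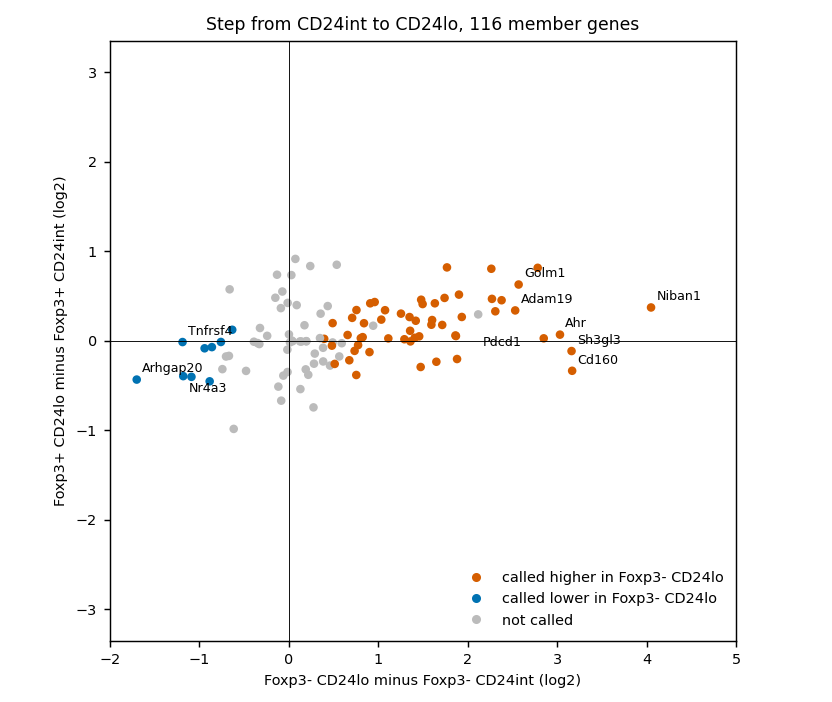
Log2 difference of each of the 116 members from CD24int to CD24lo in Foxp3- cells (horizontal axis) and in Foxp3+ cells (vertical axis), 3 arrays a group, coloured by the call in Foxp3- cells. The points spread from -1.70 to 4.05 along the horizontal axis and from -0.99 to 0.91 along the vertical one.

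The difference between the classes' differences was tested as an interaction. Relative to CD24int, the Foxp3+ minus Foxp3- difference at CD24lo was larger in 5 members and smaller in 39, where 1.41% and 3.57% of all genes were called. The count of 5 was 3 with each gene's probe sets averaged. The median member change was -0.56, against -0.01 over all genes. It was smallest for Niban1 (-3.68 ± 0.27, limma adjusted p = 2.55e-09), Cd160 (-3.50 ± 0.38), Sh3gl3 (-3.27 ± 0.56), Ahr (-2.96 ± 0.29) and Pdcd1 (-2.82 ± 0.30). It was larger for Arhgap20 (1.26 ± 0.33), Tnfrsf4 (1.17 ± 0.25), Bcl3 (0.85 ± 0.17), Nr4a3 (0.78 ± 0.18) and the formin gene Inf2 (0.75 ± 0.19). With the mean of all probe sets, the values of Nr4a3 (0.35, 0.305) and Inf2 (0.59, 0.0515) were not called. That of Arhgap20 was not called in 4 of the fits without 1 array (Foxp3- CD24lo replicate 1, Foxp3+ CD24int replicate 2, Foxp3+ CD24lo replicate 3 or Foxp3- CD24int replicate 3), at 1.00 to 1.21.

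Lymph node Tregs were set against Foxp3+ CD24lo thymocytes, the most mature thymic Tregs by CD24. Here 8 members were higher, 34 lower and 74 not called, where 3.15% of all genes were higher and 2.78% lower. The median member difference was -0.27 and that of all genes 0.01. Both groups also enter comparisons above, with the same arrays. Scin read 4.23, 3.86 and 3.75 in lymph node Tregs and 6.85, 7.13 and 7.79 in Foxp3+ CD24lo cells. Pla2g4f read 5.66, 5.36 and 5.50 against 8.35, 7.93 and 8.39. The groups did not overlap, and the differences were -3.31 ± 0.27 and -2.72 ± 0.23 (limma adjusted p = 7e-09 and 1.3e-08). Kit (-2.52 ± 0.26), Sectm1a (-2.11 ± 0.23), Arhgap20 (-2.08 ± 0.23), Il1r2 (-1.91 ± 0.22), Bhlhe40 (-1.48 ± 0.22), Bcl3 (-1.31 ± 0.12), Nr4a3 (-1.19 ± 0.13) and Lta (-0.63 ± 0.12) were also lower in lymph node.

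Tnfrsf4 (-0.66 ± 0.18), Tnfrsf18 (-0.58 ± 0.14) and Cd200 (-0.75 ± 0.18) were called lower too, on few arrays: Tnfrsf4 was not called without any 1 of lymph node Treg replicates 1 or 2 or of the Foxp3+ CD24lo replicates (limma adjusted p = 0.0685 to 0.0947). Tnfrsf18 was not called without replicate 2 of either group, nor Cd200 without lymph node Treg replicate 2 or Foxp3+ CD24lo replicate 3. Higher in lymph node were Eea1 (1.27 ± 0.31), which encodes an early endosome protein, Nrn1 (1.22 ± 0.25), Grhl1 (0.96 ± 0.22), Larp1b (0.67 ± 0.10), Prr13 (0.65 ± 0.10), Rcn1, Rilpl2 and Ncf4. Eea1 and Grhl1 were not called without lymph node Treg replicate 1 (0.0524 and 0.0527), Eea1 without Foxp3+ CD24lo replicate 1 (0.0944), nor Larp1b when its probe sets were averaged (0.20, 0.249). With the replicate number, taken to pair these arrays, as a block, 14 members were higher, where 5.7% of all genes were. Penk (-0.34 ± 0.24), Ikzf2 (-0.10 ± 0.17), Niban1 (0.38 ± 0.19), Ebi3 (-0.06 ± 0.23) and Tnfrsf9 (-0.34 ± 0.27) were not called. The summed level of 8 B cell markers was 8.71 to 9.25 in lymph node Tregs and 7.64 to 7.73 in Foxp3+ CD24lo cells, with 4 and 6 of them below 5, and its part in these values was not tested.

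The Treg difference in lymph node (against naive cells) was set against that at CD24int. It was larger in lymph node for 7 members and smaller for 18, where 2.33% and 1.3% of all genes were called, with a member median of -0.26 and an all-gene median of -0.03. The count of 7 was 3 without lymph node Treg replicate 1 and 4 without naive replicate 3. The largest positive values were those of Osbpl3 (1.51 ± 0.36), Ikzf2 (1.48 ± 0.24), Anxa2 (1.47 ± 0.30), Nrn1 (1.30 ± 0.35) and Tnfrsf4 (1.27 ± 0.25). For Ikzf2 the Treg arrays were alike, 12.30 to 12.61 at CD24int and 12.25 to 12.51 in lymph node, and naive cells (7.39 to 8.14) stood below Foxp3- CD24int cells (9.11 to 9.45). The smallest values were those of Scin (-2.75 ± 0.37, limma adjusted p = 5.62e-05), Sectm1a (-2.44 ± 0.33), Kit (-2.06 ± 0.37), Tnnt2 (-1.68 ± 0.32) and Pla2g4f (-1.67 ± 0.32).

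Of the positive values, Osbpl3 was not called in 4 fits that each left out 1 array (lymph node Treg replicate 1, naive replicate 3, Foxp3- CD24int replicate 1 or Foxp3+ CD24int replicate 3), at 1.25 to 1.40. Nrn1 was not called in 8 such fits, at 1.12 to 1.28, which spanned all 4 groups. With the mean of all probe sets, Ikzf2 (1.06, limma adjusted p = 0.0728) and Anxa2 (0.45, 0.127) were not called.

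Set side by side, the members fell into a few patterns over the 3 comparisons of Tregs with conventional cells, at CD24int, at CD24lo and in lymph node. Besides the 60 called higher in all 3, 21 were called at CD24int and in lymph node but not at CD24lo, among them Lif, Anxa2, Tbc1d4, Gch1 and Ybx3. Another 15 were called at both CD24 levels but not in lymph node, among them Kit, Scin, Tnnt2, Inf2, Colq and Tg. In lymph node Tnnt2 (0.53 ± 0.23) was called, at 0.89, without lymph node Treg replicate 1 (limma adjusted p = 0.00324) and with its probe sets averaged (0.43, 0.0125), and Scin (0.60 ± 0.27) when the compared groups were fitted alone (0.0268). A further 6 were lower at CD24lo and higher in the other pairs. Only 4833407H14Rik, Lrrc75a, Nrp2 and Nsmaf were called at CD24int alone.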

How the data were processed

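RNA was measured on 27 Affymetrix 3' arrays, 3 for each of 9 groups taken from the labels. The authors deposited intensities from RMA, per the submitters' processing notes, and its version and settings are not given in the sources used here. They ran from 3.55 to 24083 with array medians of 30.3 to 32.0, were taken as linear from these values, and were transformed to log2 without an added constant. Of 45101 probe sets, 34958 carried a single gene symbol in the platform annotation, 932 several and 9211 none, and the last 2 kinds were left out. The brightest probe set represented each of 18194 genes, of which 9012 had several. Replicates correlated at 0.987 to 0.997.

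limma 3.58.1 in R 4.3.3 fitted 9 group means on all arrays with empirical Bayes moderation (prior degrees of freedom 5.98), and two-sided p-values were adjusted by Benjamini-Hochberg within each comparison. The script was tested on simulated data. The members and gene lists were chosen with earlier results of these data known. Genes named were the 12 members with the largest mean difference in the choice, in each comparison the 5 largest called differences in each direction (for 2 groups, without overlap of arrays), members of the role lists, the 5 brightest members not called at CD24int, genes at the thresholds, and members whose promoter is shown. Others were named after their values were seen. Replicate numbers, the leading digit of the description codes, were taken to pair 2 groups where every same-numbered pair of arrays had deviations correlated above 0.1. By this check, which rests on the data alone, they paired lymph node Tregs with naive cells (lowest r = 0.25) and with Foxp3+ CD24lo cells (0.102), and CD24int with CD24lo in Foxp3+ (0.38) and Foxp3- cells (0.39). They did not pair the classes at CD24int (-0.05) or at CD24lo (0.0988). Alternatives were the replicate block, other normalization, probe set and filter choices, other thresholds, the compared groups alone, and leaving out each array. The block, which the main fit left out, added the replicate number as a term shared by all 9 groups. No detection call was used.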

Additional observations from a re-analysis of the deposited data

Results flagged for a closer look

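Between lymph node and CD24int thymocytes, the difference of Tregs from conventional cells itself differed for 25 members by the interaction test in limma. It was larger in lymph node for 7 and smaller for 18, where 2.33% and 1.3% of all genes were called. The members with the largest values were Osbpl3 (1.51), Ikzf2 (1.48), Anxa2 (1.47), Nrn1 (1.30) and Tnfrsf4 (1.27) with a larger difference in lymph node. With a smaller one there were Scin (-2.75), Sectm1a (-2.44), Kit (-2.06), Tnnt2 (-1.68) and Pla2g4f (-1.67). The calls of Osbpl3 and Nrn1 were lost in 4 and 8 of the fits that each left out 1 array. Those of Ikzf2 and Anxa2 were lost with the probe sets of each gene averaged.

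Between CD24lo and CD24int thymocytes, the same test called 44 members, 5 with a larger and 39 with a smaller difference at CD24lo. Of all genes, 1.41% and 3.57% were called. The difference of Foxp3+ from Foxp3- cells was larger at CD24lo for Arhgap20 (1.26), Tnfrsf4 (1.17), Bcl3 (0.85), Nr4a3 (0.78) and Inf2 (0.75). It was smaller at CD24lo for Niban1 (-3.68), Cd160 (-3.50), Sh3gl3 (-3.27), Ahr (-2.96) and Pdcd1 (-2.82). The call of Arhgap20 was lost in 4 of the fits that each left out 1 array. Those of Nr4a3 and Inf2 were lost with the probe sets of each gene averaged. Markers of other T cells were also high in Foxp3- CD24lo arrays. The summed level of 5 gamma delta T cell markers was 13.43 to 13.56 there and 8.48 to 9.96 in Foxp3- CD24int arrays. For 11 NK and innate-like T cell markers it was 12.71 to 12.99 and 8.48 to 9.75. The part of such cells in these values was not tested.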

How the results depend on the processing

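Under the alternatives, 523 gene results took 6642 values, of which 6310 kept their direction and side of the threshold, 285 lost a call, 47 gained one and 0 reversed. Of 248 counts, 238 stayed within 1.5 times of the reported one. With the replicate block, in comparisons whose arrays the numbers pair, 1 member was called higher and 1 lower between Foxp3+ CD24lo and CD24int cells, 17 were lower between Foxp3- CD24lo and CD24int cells, and 14 were higher in lymph node Tregs than in Foxp3+ CD24lo cells. Where the numbers did not pair all samples, the block gave 11 members with a larger and 28 with a smaller Treg difference in lymph node than at CD24int, where 4.01% and 2.85% of all genes were called, and 9 with a larger difference at CD24lo than at CD24int, where 2.83% were. It moved no other count by over 1.5 times. With the mean of all probe sets 3 members had a larger difference at CD24lo than at CD24int. Leaving out 1 array, the count with a larger difference in lymph node ran from 3 (without lymph node Treg replicate 1) to 8, and was 4 without naive replicate 3. The count of the 116 members higher at CD24int was 101 to 107 in such fits, and higher at CD24lo 69 to 74. For members higher in lymph node the range was 82 to 93 and mixes 2 sets. It includes the 93 of 122 members chosen anew without Foxp3- CD24hi replicate 3, which the ranges at CD24int and CD24lo leave out.

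The choice itself gave 86 to 167 members under other thresholds and processing and 106 to 123 without 1 array. Without Foxp3- CD24hi replicate 3, the array with liver transcripts, it gave 122, of which 112 were shared, and 110 of the 122 were higher at CD24int, 78 higher and 10 lower at CD24lo and 93 higher in lymph node. The number of arrays, 3 a group, limits the precision: the median SE was 0.15 for a difference of 2 groups and 0.21 for an interaction. Of the members, 13 had a mean below 5 and 68 had several probe sets. Of their 126 other probe sets, 110 had the same sign at CD24int.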
